A study of Homo sapiens with 19 samples.

Results

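The tumour necrosis factor (TNF) superfamily was followed in human lymphoma cells carrying short hairpin RNAs against the transcription factor EGR1. Members were taken by name: every gene whose symbol begins with TNFSF or TNFRSF and a digit, together with TNF, LTA, LTB, LTBR, CD27, CD40, CD70 and FAS. This gave 41 genes, 16 ligands and 25 receptors, among 25365 genes in the OCI-LY10 table, 25267 in the TMD8 table and 25266 in the SUDHL2 table. All 3 are established cell lines from diffuse large B-cell lymphoma of the activated B-cell-like kind.

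All 15 RNA libraries came from cells with a doxycycline-inducible hairpin that had been kept in 20 ng/ml doxycycline for 2 days, controls included. In OCI-LY10 there were 3 libraries labelled shEGR1#8, 3 labelled shEGR1#9 and 3 labelled shsc4, the control hairpin. TMD8 and SUDHL2 had 1 library for each of these labels, so their differences have no replicate check. The labels do not say whether the 3 libraries of a group stem from separate cultures. The spread that the p-values rest on is that among libraries, and it may be technical. The values were read as FPKM (fragments scaled to gene length and to library size). Another 4 chromatin samples were not analysed here.

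Ligands of the superfamily are trimeric proteins on the cell surface or released from it, and their receptors signal through 2 kinds of cytoplasmic adaptor. Receptors with a death domain recruit FADD and caspases or TRADD and RIPK1, and most others bind TRAF proteins, which lead to the canonical or the alternative NF-kB pathway. Of the 25 receptors, 4 are counted here as decoys, outside both kinds. B cells depend on the receptors of BAFF and APRIL for survival, receive T-cell help through CD40, and present CD70 and TNFSF9 to T cells. Several family genes, TNF and LTA among them, are themselves NF-kB targets, and this lymphoma subtype is known for constant NF-kB activity.

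EGR1, an immediate early zinc-finger transcription factor, was not lower in the hairpin libraries of OCI-LY10. Its values were 10, 11.4 and 20.5 FPKM in the libraries labelled shEGR1#8, 10.8, 11.8 and 22.7 FPKM in those labelled shEGR1#9, and 8.565, 9.589 and 12.3 FPKM in the controls. The difference of both labels from control was 0.42 ± 0.267 (SE) on the log2(FPKM + 1) scale, with an adjusted p of 0.349 in limma. The shEGR1#8 and shEGR1#9 libraries of TMD8 had 10.8 and 9.95 FPKM, against 7.31 FPKM in its control, and those of SUDHL2 had 13.7 and 15.4 FPKM, against 17.0 FPKM. RNA levels therefore do not show the labelled knockdown in OCI-LY10 or TMD8. In SUDHL2 the differences, -0.29 and -0.13, rest on 1 library per label and cannot show it either. Every difference given here is between libraries that carry these labels.

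Summed FPKM per library came to 431993 to 445028 in OCI-LY10, 906177 to 1127927 in TMD8 and 941761 to 1075101 in SUDHL2. Genes of short RNAs took 0.47 to 0.612% of it in OCI-LY10. They took 60.5 and 55.5% in the shEGR1#8 and shEGR1#9 libraries of TMD8, against 36.3% in its control, and 52.9 and 49.4%, against 53.8%, in SUDHL2. Over 23214 other genes, the hairpin libraries of TMD8 correlated at 0.978 to 0.987 with the SUDHL2 libraries and at 0.974 with the TMD8 control, so the TMD8 libraries do not group by their label. The B-cell marker list had 8 of 8 genes at 1 FPKM or more in each table. In OCI-LY10 its summed level was 3374 to 4077 FPKM in the libraries labelled shEGR1#8 and 3489 to 3825 FPKM in those labelled shEGR1#9, against 2699 to 2939 FPKM in the controls. Of its 8 genes tested there, only CD79A and CD74 passed, with differences of 0.65 and 0.84, beside 5.84% higher among all genes tested. CD74, with a mean of 1080 FPKM, led the sum. The T-cell list, with CD3G, CD2, CD5, CD28 and TRAT1 at 0, summed to 0.0631 to 0.0933 FPKM and 0.187 to 0.357 FPKM under the hairpin labels and to 0.0388 to 0.0888 FPKM in the controls. For the natural killer list, with KLRD1, GNLY and NKG7 at 0, the sums were 26.9 to 35.6 FPKM and 28.9 to 33.8 FPKM, against 23.3 to 24.2 FPKM. PRF1, 1 of its 3 genes tested, was higher by 0.44. The myeloid list, with 6 of 8 genes at 0, summed to 0 to 0.0399 FPKM and 0 to 0.0793 FPKM under the hairpin labels and to 0 to 0.0355 FPKM in the controls. The stromal and epithelial list summed to 10.9 to 14.5 FPKM and 12 to 13.3 FPKM under the hairpin labels and to 11 to 11.8 FPKM in the controls, and none of its genes was called. The part of these levels in the results was not tested.

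In OCI-LY10 the members with the highest levels included receptors of the B-cell lineage. TNFRSF13B (TACI, a receptor of BAFF and APRIL), CD40 (the receptor of T-cell help) and CD70 (the ligand of CD27) had the highest means over the 9 libraries, 133, 102 and 56.4 FPKM. TNFRSF17 (BCMA, the APRIL receptor of plasma cells) followed with 42.3 FPKM, TNFRSF1B (the TNF receptor without a death domain) with 32.1 FPKM and TNFSF9 (the ligand of CD137) with 17.4 FPKM. The TRAIL death receptors TNFRSF10A and TNFRSF10B averaged 11.4 and 10.3 FPKM. These 8 members were the ones at 10 FPKM or more, while 5 lay between 1 and 10 FPKM, 15 lay below 1 FPKM and 13 were listed at 0 in all 9 libraries. TNFRSF13B was above CD40, and CD40 above CD70, in each of the 9 libraries. CD70 and TNFRSF17 could not be ordered in the controls, where they ran from 37.1 to 42.6 FPKM and from 40.1 to 43.7 FPKM.

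**Figure D1:**
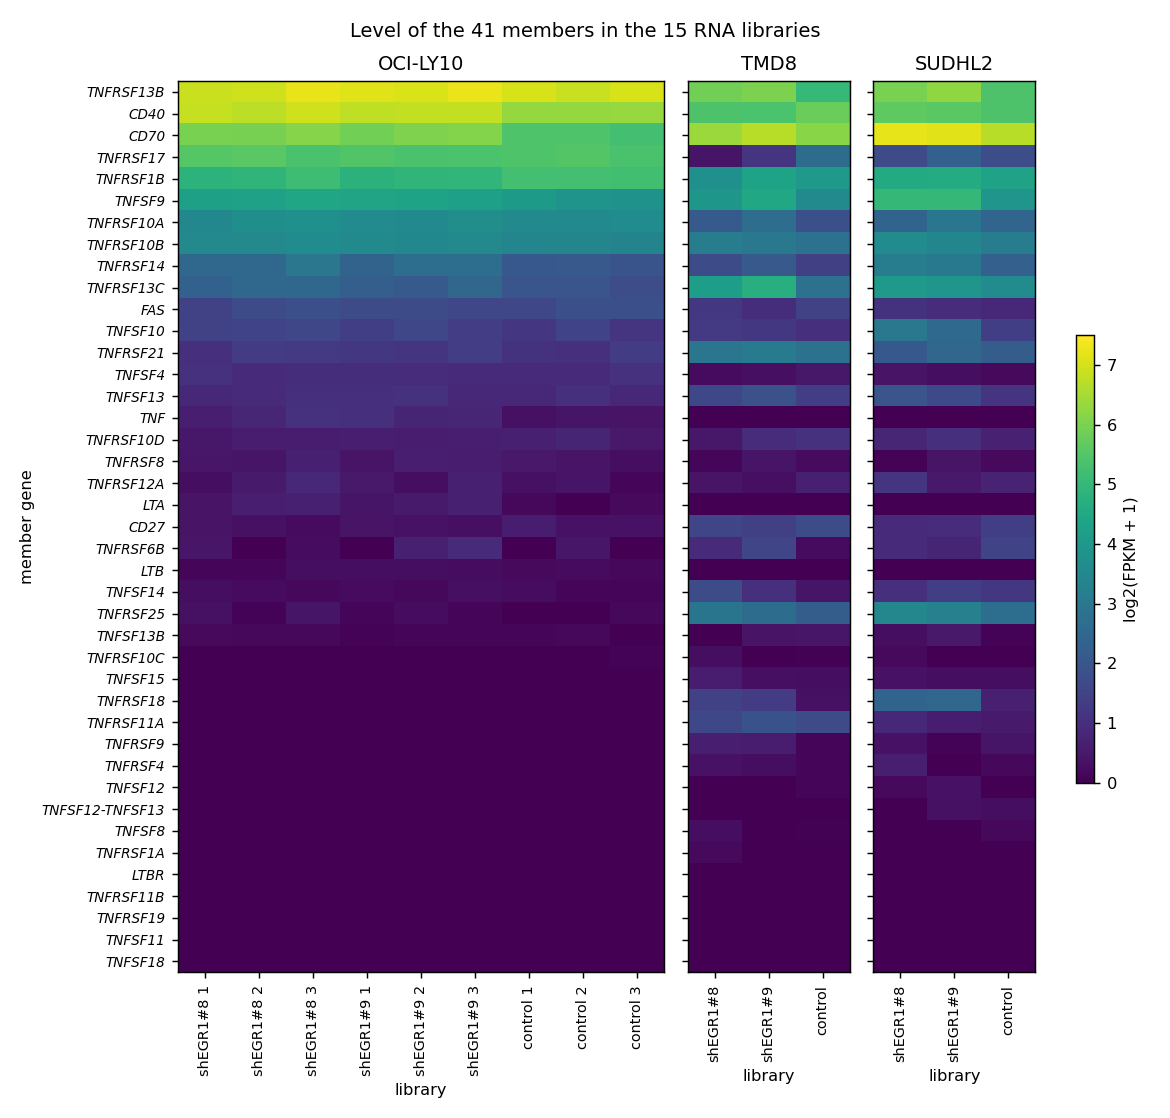
Level of each of the 41 members in the 15 RNA libraries, as log2(FPKM + 1) in colour, with libraries along the horizontal axis and members down the vertical axis in order of their mean in OCI-LY10. TNFRSF13B, CD40 and CD70 are bright in all 3 tables, TNFRSF17 is bright in OCI-LY10, and TNF, LTA and LTB are at 0 in TMD8 and SUDHL2.

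Each of the other lines had 6 members at 10 FPKM or more, and 13 in TMD8 and 12 in SUDHL2 lay between 1 and 10 FPKM. LTBR, TNFRSF11B, TNFRSF19, TNFSF11 and TNFSF18, the last being the ligand of TNFRSF18, were the 5 members listed at 0 in all 3 tables. An exact 0 in such a table can be a failed estimate, and a level of 0 is given here as listed. TNFRSF18, TNFRSF4, TNFRSF9, TNFRSF11A, TNFRSF1A, TNFSF8, TNFSF12 and TNFSF12-TNFSF13 were at 0 in OCI-LY10 and above 0 in at least 1 library of another table. Since the tables may have been scaled separately, levels across lines are descriptions.

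A gene was tested in OCI-LY10 when at least 3 libraries had 1 FPKM or more, which kept 10612 genes and 13 members, 3 ligands and 10 receptors. With both hairpin labels set against control, 5 of these members were higher and 1 was lower at an adjusted p under 0.05 (limma, Benjamini-Hochberg over all genes tested). Over all tested genes 5.84% were higher and 2.71% were lower, 8.56% in all. The higher members were CD70 and TNFSF9, which are ligands presented to T cells, and the receptors CD40, TNFRSF14 and TNFRSF13C, and the lower one was the receptor TNFRSF1B. The median difference of the 13 was 0.15, beside 0.03 over all genes tested, on the log2(FPKM + 1) scale used for every difference here, which understates the change of low genes. In bulk RNA, fewer cells of a kind and less RNA per cell cannot be told apart. The split of all calls moved with scaling, being 620 higher and 288 lower as deposited, 526 and 379 with median-ratio scaling, and 444 and 367 with quantile normalization.

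Among the ligands, CD70, which engages CD27 on T cells, had 62.3, 61.1 and 69.9 FPKM in the libraries labelled shEGR1#8, 59.1, 64.8 and 68.7 FPKM in those labelled shEGR1#9, and 42.4, 42.6 and 37.1 FPKM in the controls. All 6 hairpin libraries lay above all 3 controls. Its level averaged 64.4 ± 4.79 FPKM under shEGR1#8, 64.2 ± 4.82 FPKM under shEGR1#9 and 40.7 ± 3.13 FPKM in the controls (SD, n = 3 each), a difference of 0.65 ± 0.0732 (SE) with a limma adjusted p of 0.00142. TNFSF9 costimulates T cells through CD137. It had 18.4, 18.5 and 20.1 FPKM under shEGR1#8 and 19.8, 19.5 and 17.7 FPKM under shEGR1#9, against 15.9, 13.6 and 13.4 FPKM in the controls. The groups again did not overlap, and the difference was 0.39 ± 0.0684 (limma adjusted p = 0.0108). Omitting control replicate 2 or 3 ended its call (limma adjusted p = 0.0623 and 0.0683, range over 17 alternatives 0.00383 to 0.0683). TNFSF10 (TRAIL), the third tested ligand, averaged 1.89, 1.73 and 1.46 FPKM under shEGR1#8, shEGR1#9 and control, and its difference of 0.20 did not pass (limma adjusted p = 0.219).

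Of the TRAF-binding receptors, CD40 was at 114, 107 and 124 FPKM in the libraries labelled shEGR1#8, 109, 111 and 112 FPKM in those labelled shEGR1#9, and 78.5, 79.0 and 79.9 FPKM in the controls. The lowest hairpin library stood well clear of the highest control. The means were 115 ± 8.75 FPKM under shEGR1#8, 111 ± 1.44 FPKM under shEGR1#9 and 79.1 ± 0.726 FPKM in the controls (SD, n = 3 each), and the difference was 0.51 ± 0.0529 with a limma adjusted p of 0.000904. TNFRSF14 (HVEM), which binds TNFSF14, LTA and the inhibitory receptor BTLA, is a gene often mutated in B-cell lymphomas. It had 4.688, 4.772 and 6.905 FPKM under shEGR1#8 and 4.238, 5.54 and 5.525 FPKM under shEGR1#9, against 3.185, 3.285 and 2.86 FPKM in the controls. There was no overlap, although 1 shEGR1#8 library was far above the other two, and the difference was 0.60 ± 0.121 (limma adjusted p = 0.0184). Leaving out any 1 control ended this call (limma adjusted p = 0.0727, 0.0641 and 0.0959 for control replicate 1, 2 and 3, range over 17 alternatives 0.00352 to 0.0959). Such a loss was common, since these omissions took the calls over all genes from 908 to 313, 313 and 281.

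TNFRSF1B, the TNF receptor found mainly on lymphoid cells, went the other way. It had 27.8, 28.8 and 35.4 FPKM under shEGR1#8 and 27.5, 29.1 and 29.4 FPKM under shEGR1#9, against 37.2, 37 and 36.6 FPKM in the controls. Every hairpin library was below every control, but the third shEGR1#8 library came close to them. The difference was -0.31 ± 0.0745 with a limma adjusted p of 0.0351, and it was the least stable of the 6 calls, being kept in 9 of 17 alternatives with a limma adjusted p of 0.00114 to 0.128. It was lost without any 1 of the controls (limma adjusted p = 0.124, 0.121 and 0.128), without shEGR1#8 replicate 2 (0.0518), without any 1 of the shEGR1#9 libraries (0.0714, 0.0717 and 0.0667), and with no filter on low genes (0.0534).

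The 3 receptors of BAFF and APRIL behaved unequally. TNFRSF13C, the BAFF receptor on which mature B cells depend, had 4.012, 4.831 and 4.821 FPKM under shEGR1#8, 3.789, 3.341 and 4.618 FPKM under shEGR1#9, and 2.959, 2.973 and 2.404 FPKM in the controls. Its groups did not overlap, and the difference was 0.47 ± 0.0986 (limma adjusted p = 0.0222). This call again needed each of the 3 controls (limma adjusted p = 0.0685, 0.0664 and 0.116 on leaving out control replicate 1, 2 or 3, range over 17 alternatives 0.0119 to 0.116). The same omissions took the calls over all genes from 908 to 313, 313 and 281. TNFRSF13B had 119, 123 and 150 FPKM under shEGR1#8, 139, 134 and 154 FPKM under shEGR1#9, and 132, 117 and 130 FPKM in the controls. These groups overlapped, and its difference of 0.11 ± 0.085 did not pass (limma adjusted p = 0.45). TNFRSF17 averaged 43.8, 41.1 and 42.0 FPKM in the same groups, a difference of 0.01 (limma adjusted p = 0.898).

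**Figure D2:**
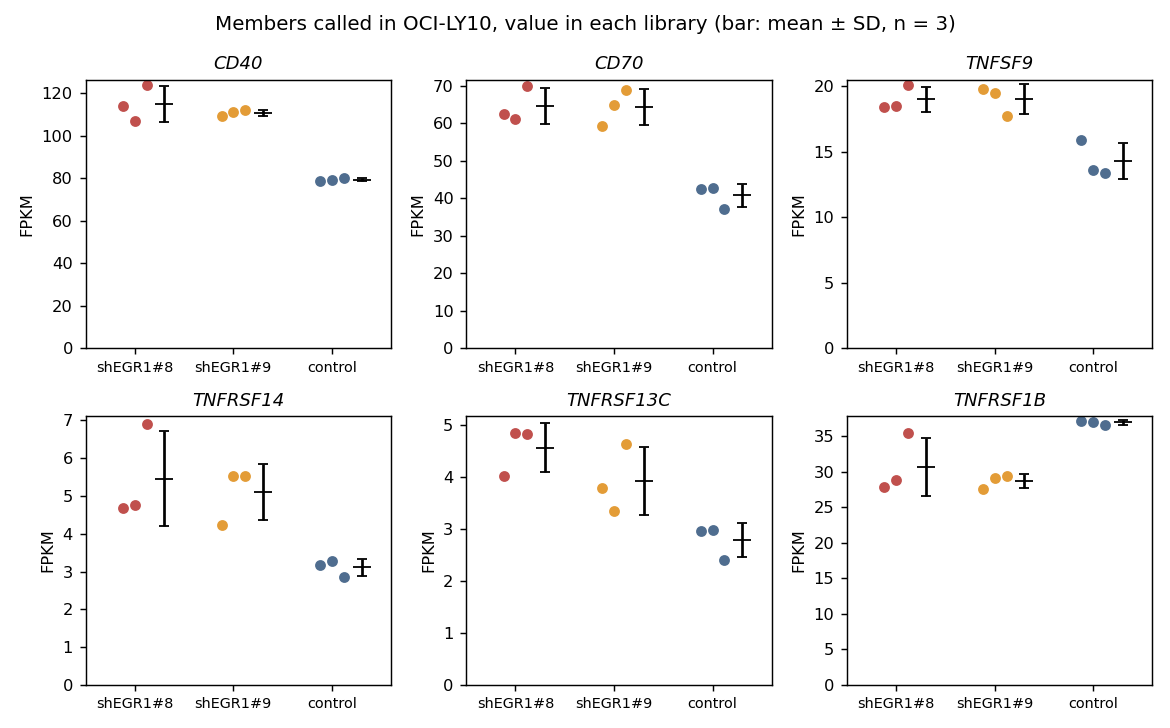
FPKM of the 6 called members in each OCI-LY10 library (points), with the mean and SD of 3 libraries beside them, for shEGR1#8, shEGR1#9 and control from left to right, on axes that start at 0. The hairpin libraries lie above the controls for CD40, CD70, TNFSF9, TNFRSF14 and TNFRSF13C and below them for TNFRSF1B.

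None of the 4 tested death domain receptors was called. TNFRSF10B, a TRAIL receptor that signals cell death, had 10.6, 10.5 and 11.6 FPKM under shEGR1#8, 10.7, 10.3 and 10.6 FPKM under shEGR1#9, and 9.582, 9.581 and 9.444 FPKM in the controls. Its 6 hairpin libraries were above the controls, yet the difference of 0.15 ± 0.0491 did not pass (limma adjusted p = 0.0902). FAS, the receptor of FAS ligand, differed by -0.06, TNFRSF10A by 0.06 and TNFRSF21 by 0.07, with overlapping groups. Counting by overlap alone, all 6 hairpin libraries were above all controls for 6 of the 13 tested members and below them for 1, beside 12.9 and 8.22% of all tested genes.

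Each hairpin label was also set against control on its own. With shEGR1#8 alone, CD40, CD70, TNFSF9, TNFRSF14 and TNFRSF13C were higher and none was lower, beside 3.71 and 1.62% of all genes tested (5.33% in all). Leaving out 1 library took the 5 calls to as few as 2, without control replicate 2 or 3, and to 3 without control replicate 1 or without shEGR1#9 replicate 2. With shEGR1#9 alone, CD40, CD70 and TNFSF9 were higher (limma adjusted p = 0.00367, 0.00422 and 0.0275) and none was lower, beside 3.55 and 1.54% (5.09% in all). The TNFSF9 call with shEGR1#9 was lost on omitting control replicate 2 or 3 (limma adjusted p = 0.11 and 0.117) or any 1 of the shEGR1#9 libraries (0.0952, 0.115 and 0.059). Without shEGR1#8 replicate 3 the count was 5, where 1153 of 10565 genes were called, beside 540 of 10612 with all libraries. TNFRSF14 (limma adjusted p = 0.055), TNFRSF1B (0.0504) and TNFRSF13C (0.108) did not pass with shEGR1#9. Both comparisons use the same 3 controls. Set directly against each other, shEGR1#9 and shEGR1#8 gave no call for a member and 0.0% for all genes, with 0 members and 267 of 10612 genes at an unadjusted p under 0.05 in limma. The 13 members differed by -0.18 to 0.13 between the labels, with 95% intervals reaching from -0.44 to 0.35.

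**Figure D3:**
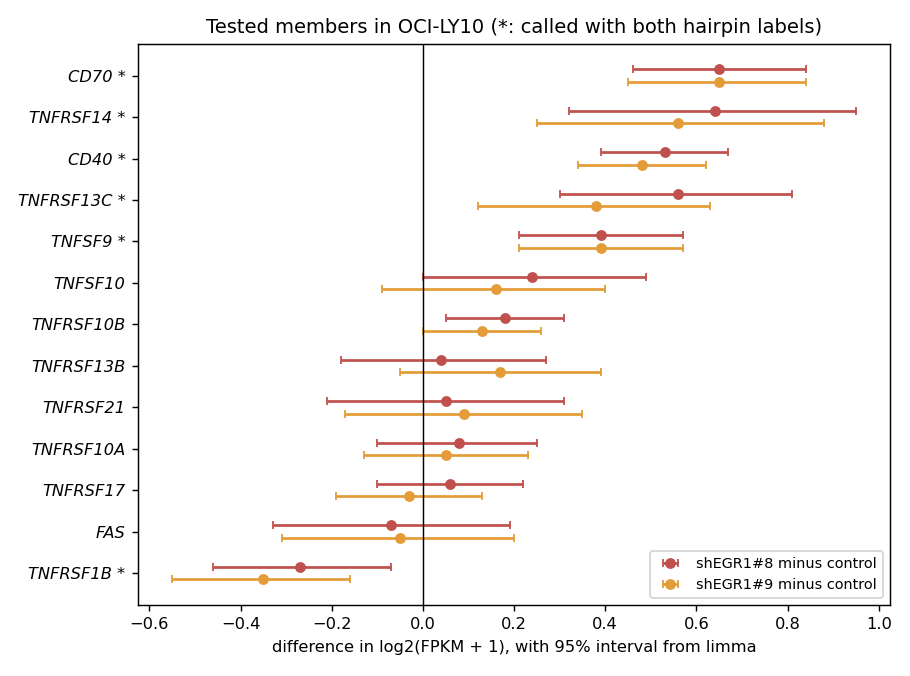
Difference of each hairpin label from control in log2(FPKM + 1) for the 13 members tested in OCI-LY10, shEGR1#8 above shEGR1#9 for each gene, with 95% intervals from limma. The intervals of CD70, TNFRSF14, CD40, TNFRSF13C and TNFSF9 lie right of 0 with both labels, and those of TNFRSF10B come close to it. Those of TNFRSF1B lie left of 0, and those of FAS, TNFRSF17, TNFRSF10A, TNFRSF21, TNFRSF13B and TNFSF10 cross it.

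CD40 and CD70 were called in 17 of 17 alternatives, with differences of 0.47 to 0.53 and 0.58 to 0.68. The libraries numbered 3 under the 2 hairpin labels held the highest EGR1 values. Without them the count of called members with both labels together was 6. Over all genes the calls were then 1053 of 10511, beside 908 of 10612 with all libraries. Leaving these libraries out was chosen after seeing the data.

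Of the other 28 members, 13 were at 0 in OCI-LY10 and 15 had means of 0.00136 to 0.955 FPKM, below the level tested. TNF and LTA are singled out among them after their values were seen. TNF, the founding inflammatory cytokine, had 0.54, 0.748 and 1.084 FPKM under shEGR1#8 and 1.065, 0.717 and 0.764 FPKM under shEGR1#9, against 0.251, 0.331 and 0.327 FPKM in the controls. LTA (lymphotoxin alpha), which binds the TNF receptors, had 0.306, 0.537 and 0.57 FPKM under shEGR1#8 and 0.356, 0.455 and 0.576 FPKM under shEGR1#9, against 0.124, 0 and 0.133 FPKM in the controls. For both genes the hairpin libraries lay above the controls without overlap. The same held for 6.09% of the 2709 genes in this range, those with 0.1 FPKM or more in at least 3 libraries but not tested, and 1.59% of them lay below the controls. With a filter of 0.1 FPKM and both labels against control, limma called both, LTA with a difference of 0.43 ± 0.0816 (limma adjusted p = 0.0178) and TNF with 0.47 ± 0.1 (limma adjusted p = 0.0262), where 4.53% of genes were higher. Both were also higher with no filter (limma adjusted p = 0.0203 for LTA and 0.0358 for TNF), where 3.38% of genes were. Taken with either label alone under the 0.1 FPKM filter, LTA passed (limma adjusted p = 0.0417 for shEGR1#8 and 0.0434 for shEGR1#9) and TNF did not (0.072 and 0.0504), nor did TNF with no filter (0.0881 and 0.0663). LTB, which anchors lymphotoxin at the cell surface, had 0.074, 0.106 and 0.213 FPKM and 0.202, 0.201 and 0.195 FPKM under the hairpin labels and 0.141, 0.165 and 0.11 FPKM in the controls, which overlapped (difference 0.03, limma adjusted p = 0.75).

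**Figure D4:**
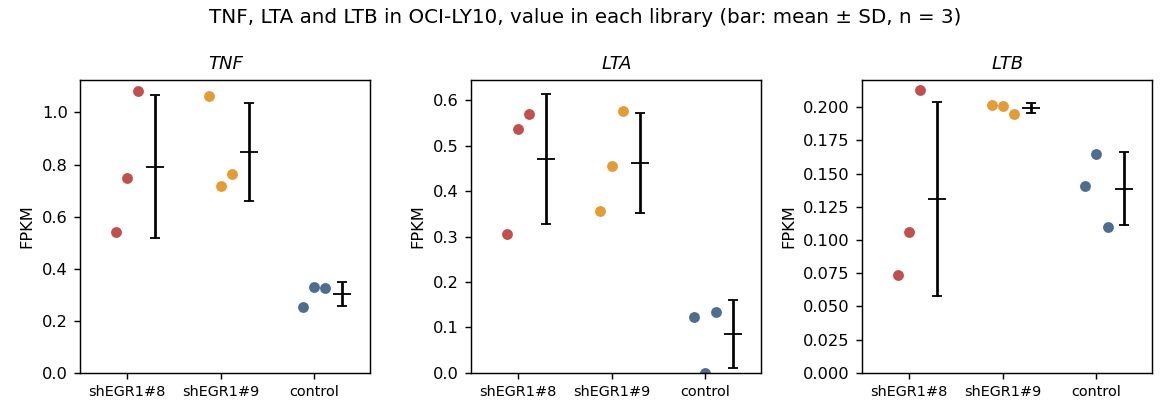
FPKM of TNF, LTA and LTB in each OCI-LY10 library (points), with the mean and SD of 3 libraries beside them, for shEGR1#8, shEGR1#9 and control from left to right. The hairpin libraries lie above the controls for TNF and LTA and overlap them for LTB.

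The values of this locus are uncertain in all 3 tables. TNF, LTA and LTB are neighbours on chromosome 6, inside the major histocompatibility complex. All 3 were listed at 0 in every TMD8 and SUDHL2 library, and so were 20 of TNF and its 20 nearest coding genes in TMD8 and 21 of 21 in SUDHL2. Among these were DDX39B, PRRC2A, BAG6 and CSNK2B, which nearly every cell uses. In OCI-LY10, 4 of the 21 were at 0, BAG6 ran from 0 to 0.242 FPKM and CSNK2B from 0 to 9.19 FPKM.

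In TMD8, 21 members reached 1 FPKM in at least 1 library. Both hairpin libraries were past 1.5-fold above the control for 5 of them and below it for 1, beside 6.78% and 13.9% of the 11807 genes compared. The higher members were TNFRSF13B, TNFRSF13C, TNFRSF18, TNFRSF6B and TNFSF14, and the lower one was TNFRSF17. TNFRSF18, TNFRSF6B and TNFSF14 reached 1 FPKM only under the hairpin labels. The filter thus let them in by the side where they were high. With no filter on low genes the same 6 members were called, beside 4.76% higher and 9.64% lower of 17218 genes. The BAFF receptor TNFRSF13C had 17.4 FPKM under shEGR1#8 and 24.9 FPKM under shEGR1#9, against 5.99 FPKM in the control, differences of 1.40 and 1.89. TNFRSF13B had 59.2 and 64.4 FPKM, against 31.5 FPKM in the control. BCMA moved the other way within this receptor group, with 0.342 and 1.18 FPKM for TNFRSF17 under the hairpin labels, against 5.25 FPKM in the control, differences of -2.22 and -1.52.

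The other 3 were low. TNFRSF18 (GITR), a costimulatory receptor of T cells, had 1.72 and 1.5 FPKM under shEGR1#8 and shEGR1#9 in TMD8, against 0.273 FPKM in the control. TNFSF14 (LIGHT), a ligand of TNFRSF14, had 2.30 and 1.01 FPKM, against 0.334 FPKM. TNFRSF6B, a soluble decoy receptor of FAS ligand and TNFSF14, had 0.852 and 1.97 FPKM, against 0.156 FPKM. Median-ratio scaling raised the TMD8 differences by 0.14 for shEGR1#8 and 0.05 for shEGR1#9 and gave 999 higher and 1333 lower genes in place of 800 and 1644, with the same 6 members called. The median of the 21, with TNFRSF18, TNFSF14 and TNFRSF6B included, was 0.36, beside -0.02 over all genes compared.

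SUDHL2 also had 21 members to compare, of which 5 were higher and 1 was lower, beside 3.83% and 2.16% of 11631 genes. TNFSF9 had 31.2 FPKM under shEGR1#8 and 30.7 FPKM under shEGR1#9, against 14.1 FPKM in the control (differences 1.09 and 1.07), and TNFRSF14 had 7.98 and 7.12 FPKM, against 3.92 FPKM (0.87 and 0.72). Both were also called higher in OCI-LY10. TNFSF10 (TRAIL), the ligand of the death receptors TNFRSF10A and TNFRSF10B, had 7.01 and 4.95 FPKM under the hairpin labels, against 1.62 FPKM in the control. TNFRSF18 had 4.29 and 4.60 FPKM, against 0.581 FPKM, the largest member differences in this table at 1.74 and 1.82. It reached 1 FPKM only under the hairpin labels, so the filter let it in by the side where it was high. TNFRSF13B had 62.6 and 75.3 FPKM, against 41.1 FPKM, and its call (0.59 and 0.86) was lost with median-ratio scaling. TNFRSF6B was the lower one, with 0.887 and 0.725 FPKM, against 1.91 FPKM in the control, where alone it reached 1 FPKM. With no filter on low genes the same 6 members were called, beside 2.75% higher and 1.76% lower of 16611 genes. The median of the 21 was 0.26, beside 0.01 over all genes compared.

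TNFRSF6B overlaps a read-through transcript that starts in RTEL1, so reads of these genes could have been divided in more than 1 way. In OCI-LY10 control replicate 2, RTEL1 had 0.159 FPKM and the read-through gene RTEL1-TNFRSF6B had 4.53 FPKM, while in the other libraries RTEL1 had 3.98 to 6.08 FPKM and the read-through gene 0 to 1.65 FPKM. TNFRSF6B itself had 0.369 FPKM in that control, within its range of 0 to 0.883 FPKM in OCI-LY10. The read-through gene was listed at 0 in all 3 SUDHL2 libraries, and in TMD8 at 0 under both hairpin labels and at 0.318 FPKM in the control. Values of TNFRSF6B are given as uncertain, and the part of this overlap in them was not tested.

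Most members stayed under the fold in these tables, 15 in each, with differences of -0.59 to 0.91 in TMD8 and -0.46 to 0.83 in SUDHL2. Both hairpin libraries were above the control for 9 of the 15 in TMD8 and below it for 4, and above for 9 and below for 1 in SUDHL2. The matching share over all genes was not counted, so these counts do not set the members apart from other genes. CD70 had 81.5 and 103 FPKM under shEGR1#8 and shEGR1#9, against 71.1 FPKM in the TMD8 control, and 147 and 143 FPKM, against 103 FPKM, in SUDHL2. CD40 had 41.1 and 40.8 FPKM, against 54.0 FPKM, in TMD8, below its control, and 48.7 and 47.1 FPKM, against 41.3 FPKM, in SUDHL2. TNFRSF1B, lower in OCI-LY10, had 12.5 and 19.4 FPKM, against 15.5 FPKM, in TMD8 and 22.8 and 23.4 FPKM, against 19.1 FPKM, in SUDHL2.

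**Figure D5:**
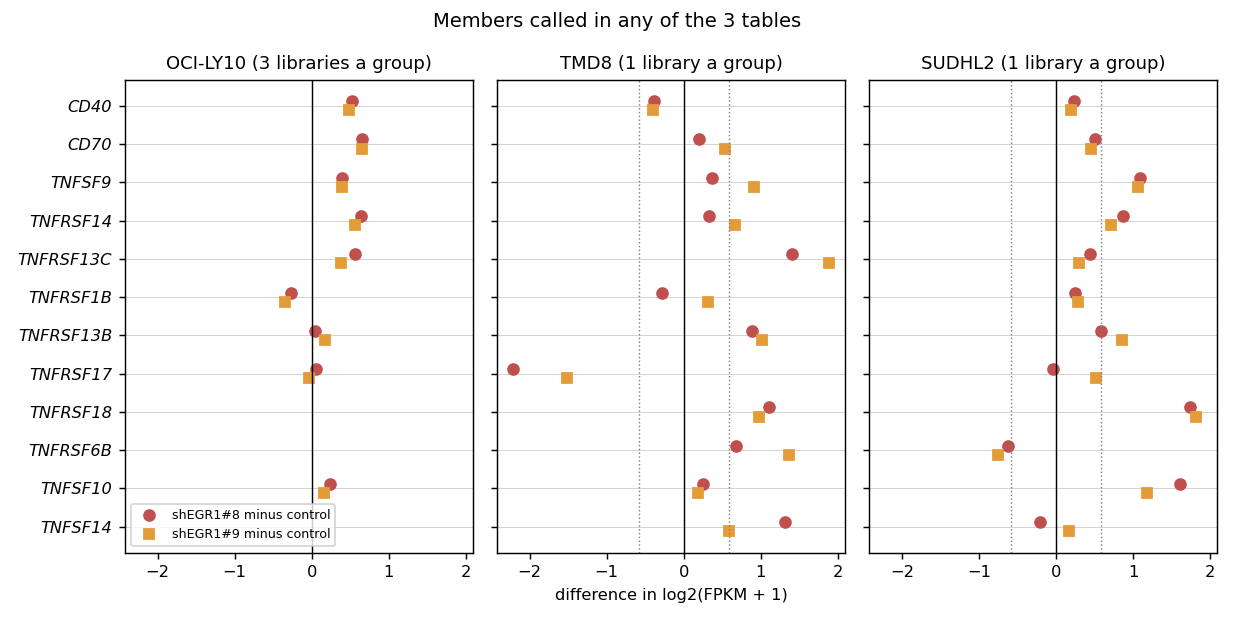
Difference from control in log2(FPKM + 1) for the members called in any table, with shEGR1#8 as circles and shEGR1#9 as squares, in OCI-LY10 (mean of 3 libraries a group), TMD8 and SUDHL2 (1 library a group). Dotted lines mark 1.5-fold, and members not tested in OCI-LY10 have no point there. CD70, TNFSF9, TNFRSF14, TNFRSF13C, TNFRSF13B and TNFSF10 lie right of 0 in each panel, and CD40 lies left of it in TMD8 only.

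Some of these genes lie side by side. In the RefSeq gene order TNFSF9, CD70 and TNFSF14 are consecutive on chromosome 19, and the first of these and CD70 were the 2 ligands called in OCI-LY10, where TNFSF14 stayed between 0.072 and 0.24 FPKM. The next pair, TNFRSF18 and TNFRSF4, are neighbours on chromosome 1, and TNFRSF4 was at 0 in OCI-LY10.

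Promoters of 5 members whose hairpin and control libraries did not overlap in OCI-LY10 are shown because EGR1 binds a GC-rich core and NF-kB binds the kappaB site, both known promoter elements. Windows of 250 bases before the start site were taken by symbol from RefSeq (GRCh38.p14), where 27 of 41 members were matched. CD40, CD70 and TNFRSF13C had no match, and no sequence of theirs or of TNFRSF10B is shown. Capitals mark letters that match the EGR1 core GCGNGGGCG or the kappaB consensus on either strand, all else is in lower case, and the sequences read from 5′ to 3′ toward the start site.
TNFSF9 (chr19:6530776-6531025, plus strand): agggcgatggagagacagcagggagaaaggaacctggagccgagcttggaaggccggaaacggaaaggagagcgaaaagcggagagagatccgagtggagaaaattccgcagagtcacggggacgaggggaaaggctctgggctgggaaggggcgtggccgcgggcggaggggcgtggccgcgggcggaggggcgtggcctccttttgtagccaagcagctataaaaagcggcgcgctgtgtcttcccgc
TNFRSF14 (chr1:2556121-2556370, plus strand): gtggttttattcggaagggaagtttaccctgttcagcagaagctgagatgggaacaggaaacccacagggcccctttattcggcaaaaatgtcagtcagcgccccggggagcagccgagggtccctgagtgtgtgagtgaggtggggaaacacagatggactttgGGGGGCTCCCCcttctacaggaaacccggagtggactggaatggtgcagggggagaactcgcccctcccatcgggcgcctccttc
TNFRSF1B (chr1:12166741-12166990, plus strand): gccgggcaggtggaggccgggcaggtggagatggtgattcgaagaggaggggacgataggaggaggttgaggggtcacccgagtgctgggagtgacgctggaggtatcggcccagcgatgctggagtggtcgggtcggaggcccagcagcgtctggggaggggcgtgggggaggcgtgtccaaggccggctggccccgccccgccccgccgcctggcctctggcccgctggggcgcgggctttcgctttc
LTA (chr6:31572039-31572288, plus strand): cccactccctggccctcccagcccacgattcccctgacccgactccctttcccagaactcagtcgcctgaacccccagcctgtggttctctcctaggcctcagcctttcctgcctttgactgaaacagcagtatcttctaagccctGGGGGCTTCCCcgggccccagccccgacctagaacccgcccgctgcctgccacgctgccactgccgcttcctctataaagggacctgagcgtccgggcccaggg
TNF (chr6:31575315-31575564, plus strand): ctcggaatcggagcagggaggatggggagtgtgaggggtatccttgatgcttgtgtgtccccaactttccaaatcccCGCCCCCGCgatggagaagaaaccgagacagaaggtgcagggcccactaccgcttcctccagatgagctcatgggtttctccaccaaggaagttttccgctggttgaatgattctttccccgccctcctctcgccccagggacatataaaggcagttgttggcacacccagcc

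In TNFRSF14 there were 3 overlapping kappaB matches, on both strands, between 74 and 85 bases before the start. LTA has several start sites in RefSeq, and the window shown, chosen because it holds a match, had 2 overlapping ones 93 to 104 bases before the start. The window of TNF held 1 EGR1 core on the other strand, 164 to 173 bases before the start, and those of TNFSF9 and TNFRSF1B held neither set of letters. The EGR1 core was present in 2 of the 36 member windows (FAS and TNF), beside 8.41% of 35116 windows of all genes, and it shares letters with the GC box that binds other factors. A kappaB match was present in 11 of 36 member windows, beside 6.88% of all windows. These belonged to 9 genes, FAS, LTA, LTB, TNFRSF14, TNFRSF19, TNFRSF9, TNFSF11, TNFSF13 and TNFSF14. Only TNFRSF14 of them was among the 6 members called in OCI-LY10 with the main filter, and TNFRSF19, TNFRSF9 and TNFSF11 were at 0 there. The count is thus not one of members that changed. A match is a stretch of letters and not a bound site.

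Downstream of the receptors, the adaptors, kinases and NF-kB genes on a list of 50 were examined, of which 46 were tested in OCI-LY10. With both hairpin labels 7 were higher, 1 was lower and 38 did not pass, beside 5.84% higher and 2.71% lower among all genes tested, and the median was 0.12 beside 0.03. NF-kB subunits and inhibitors gave 4 of these calls among 8 tested. NFKBIE and NFKBIA, which hold NF-kB in the cytoplasm and are its targets, were higher by 0.61 (limma adjusted p = 0.000182) and 0.47 (limma adjusted p = 0.00337).

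NFKB2, the precursor of the alternative pathway that CD40 and the BAFF receptor engage, averaged 44.0 ± 3.37 and 46.1 ± 2.68 FPKM under shEGR1#8 and shEGR1#9, against 33.0 ± 0.89 FPKM in the controls (difference 0.43, limma adjusted p = 0.00434). NFKB1, the precursor of the canonical pathway, was higher by 0.20 (limma adjusted p = 0.0238). TRAF1, an adaptor induced by NF-kB, was the 1 TRAF gene of 8 that was called, with 6.49 ± 0.697 and 6.85 ± 0.353 FPKM, against 4.44 ± 0.315 FPKM in the controls (difference 0.50, limma adjusted p = 0.00492). The kinase MAP3K8 averaged 19.8 ± 2.44 and 20.1 ± 0.495 FPKM, against 14.6 ± 1.0 FPKM (difference 0.43, limma adjusted p = 0.0114), which did not pass when control replicate 1 was omitted (limma adjusted p = 0.0637). TNFAIP3, the ubiquitin-editing brake on this pathway, was higher by 0.30 (limma adjusted p = 0.0139). The caspase inhibitor XIAP was lower, at -0.31 (limma adjusted p = 0.0261). These 2 and NFKB1 complete the 8 calls, and the calls of TNFAIP3, XIAP and NFKB1 were lost on omitting any 1 control. With shEGR1#9 alone, NFKB1 and XIAP did not pass (limma adjusted p = 0.066 and 0.108). None of the 9 tested death domain adaptors and caspases was called, with a median of 0.04.

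The 8 signalling genes called in OCI-LY10 were also looked at in the other lines, where 1 library per group allows no test. The same split over all genes called in OCI-LY10 was not counted, so it is not shown to be particular to these 8. Shares over all genes were counted only for both libraries past 1.5-fold, which is not the measure of side used here. They were 6.78% higher and 13.9% lower in TMD8 and 3.83% higher and 2.16% lower in SUDHL2. In TMD8 none of the 8 had both hairpin libraries on the same side of control as in OCI-LY10. Of them, 6 had both on the opposite side and 2 had 1 on each side. NFKB1 had 44.8 and 44.3 FPKM under shEGR1#8 and shEGR1#9 in TMD8, against 58.7 FPKM in the control, and MAP3K8 had 7.02 and 6.93 FPKM, against 12.1 FPKM. In SUDHL2, 6 of the 8 were on the same side as in OCI-LY10, MAP3K8 had one library on each side, and NFKB1 was on the opposite side, with 48.7 and 44.5 FPKM, against 57.8 FPKM in the control.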

How the data were processed

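RNA libraries of OCI-LY10, TMD8 and SUDHL2 were prepared with an Illumina TruSeq RNA kit, per the labels' protocols. The submitters' processing notes name Bowtie2, HISAT, StringTie and the build hg19, with no version or role, and the annotation was not given in the sources used here. Each deposited table gives 1 value per gene and library. Neither the labels nor the headers name the unit, and from the values it was read as FPKM made by the authors. Read totals were not given. In OCI-LY10 the value of 1 read relative to control replicate 1 was -0.37 to 0.60 log2 units, a larger value standing for a shallower library. It was read from genes under 0.08 FPKM, of which 24.7 to 33.8% formed whole-number ratios (up to 4, tolerance 0.01 log2 units). Under shEGR1#8 and shEGR1#9 it was 0.58 and 0.60 relative to the SUDHL2 control, with 88.2 and 81.2% in such ratios. In TMD8 it was 0.375 and 0.175, with 10.4 and 8.1%. As depth was known only in relative terms, counting intervals were not computed.

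The members, gene lists and tests were chosen with earlier results of these data known. Lines with a repeated name (4, 10 and 10) were left out, as were 430 lines of the SUDHL2 table that repeat the end of the TMD8 table or are joined to it. In OCI-LY10, genes with at least 1 FPKM in at least 3 of 9 libraries were fitted as log2(FPKM + 1) with limma 3.58.1 under R 4.3.3, each group having its own mean and the variance following a trend with the level, with Benjamini-Hochberg adjustment over 10612 genes and a threshold of 0.05. The fit was checked on simulated data. In TMD8 and SUDHL2, with 1 library per group, a gene at 1 FPKM or more in at least 1 library was called when both hairpin libraries differed from control by over 1.5-fold of FPKM + 1 in the same direction. Tables were never tested against each other. Named in full were members called in any table and the 3 highest in OCI-LY10, and signalling genes were named when called with a difference of at least 0.4 in either direction (any other gene was named after its values were seen). Alternatives were a pseudocount of 0.1, other filters, median-ratio scaling, quantile normalization, array weights, a replicate block, a 2-fold limit, each library left out in turn, and both hairpin libraries numbered 3 left out. Promoter windows and gene order came from RefSeq (GRCh38.p14). Python 3.11.15, numpy 2.4.6, pandas 2.3.3 and matplotlib 3.10.9 were used.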

Additional observations from a re-analysis of the deposited data

Results flagged for a closer look

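Members moved in opposite directions under the same hairpin labels in 2 cell lines, with every hairpin library on 1 side of the controls in each line. None of these differences was tested, since TMD8 and SUDHL2 have 1 library per group, and the tables may have been scaled separately. The mean difference of CD40 from control was -0.39 in TMD8 and 0.51 in OCI-LY10, which are -0.90 apart on the log2(FPKM + 1) scale. CD40 also differed between TMD8 (-0.39) and SUDHL2 (0.21), by -0.60. Between TMD8 and SUDHL2, FAS differed by -0.55, from -0.35 and 0.20, and TNFRSF10D, a decoy receptor of TRAIL, by -0.58, from -0.35 and 0.23. Both genes lay near the limit of 1 FPKM. Under shEGR1#8, shEGR1#9 and control, FAS had 1.32, 0.979 and 1.73 FPKM in TMD8 and 1.13, 0.951 and 0.775 FPKM in SUDHL2. In the same order TNFRSF10D had 0.405, 0.954 and 1.11 FPKM in TMD8 and 0.759, 1.03 and 0.611 FPKM in SUDHL2. It thus reached 1 FPKM only in the TMD8 control and the shEGR1#9 library of SUDHL2. TNFRSF1B differed by 0.57, from 0.26 in SUDHL2 and -0.31 in OCI-LY10. TNFRSF6B differed by 1.71, from 1.02 in TMD8 and -0.69 in SUDHL2, and its values are uncertain, since the gene overlaps a read-through transcript of RTEL1, whose part was not tested. TMD8 hairpin libraries correlated more closely with SUDHL2 libraries (0.978 to 0.987) than with the TMD8 control (0.974), and the TMD8 values here are set against that control.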

How the results depend on the processing

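With both hairpin labels against control, the 6 called members of OCI-LY10 stayed at 6 with the replicate block and became 2 to 6 when 1 library was left out, the lowest counts arising without a control. With shEGR1#8 alone the 5 calls became 2 with the replicate block and 2 to 5 without 1 library. With shEGR1#9 alone the 3 calls became 2 with the replicate block, 5 with array weights, 5 without both hairpin libraries numbered 3, and 2 to 5 without 1 library. The comparison of the labels gave 0 in each of these settings. Over all genes, the replicate block took the calls from 566 to 349 with shEGR1#8 and from 540 to 351 with shEGR1#9. With shEGR1#9 they were 1950 with array weights and 581 without both hairpin libraries numbered 3. The replicate numbers were not used to pair libraries, because same-numbered control and hairpin libraries correlated at -0.188 to 0.0597, although same-numbered shEGR1#8 and shEGR1#9 libraries correlated at 0.173, 0.134 and 0.26. The calls lost with the replicate block in the shEGR1#8 comparison were those of TNFRSF13C, TNFRSF14 and TNFSF9 (limma adjusted p = 0.0626, 0.0531 and 0.0535), and in the shEGR1#9 comparison that of TNFSF9 (0.0537). The signalling list, with 8 calls, had 16 with array weights and 4 to 12 without 1 library. The difference of EGR1 ran from 0.27 to 0.56 without 1 library and was 0.12 without both hairpin libraries numbered 3, and its limma adjusted p was 0.054 with the replicate block (0.054 to 0.6 over all alternatives). TNFRSF13B, which was not called, changed sign under shEGR1#8, to -0.03 with array weights, to -0.06 without both hairpin libraries numbered 3, and as low as -0.06 and as high as 0.11 without 1 library. A 2-fold limit left 2 of 6 calls in TMD8 and 3 of 6 in SUDHL2. Over all genes, 908 calls became 1914 with array weights and 281, 313 and 313 without control replicate 3, 1 or 2. The cause of these changes was not tested. Depth is known only in relative terms, which limits members under 1 FPKM. This holds also for low calls in SUDHL2, where both hairpin libraries were read as shallower than the control.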

Other observations

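Superfamily genes whose symbols fall outside the name rule were looked at as well. Of 7 such genes, EDA2R and RELT were tested in OCI-LY10. RELT averaged 4.69 ± 0.847 FPKM under shEGR1#8, 4.17 ± 0.222 FPKM under shEGR1#9 and 3.84 ± 0.465 FPKM in the controls (SD, n = 3 each), and neither gene was called (limma adjusted p = 0.321 for RELT and 0.236 for EDA2R). FASLG, the ligand of FAS, was listed at 0 in all 15 libraries. CD40LG, the ligand of CD40, was listed at 0 in OCI-LY10 and SUDHL2 and had 0, 0.115 and 0.0402 FPKM in the TMD8 libraries labelled shEGR1#8, shEGR1#9 and control.

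BIRC3, a ubiquitin ligase of TNF receptor complexes and an NF-kB target, lay at 23.4 ± 5.74 FPKM under shEGR1#8 and 23.3 ± 1.51 FPKM under shEGR1#9, against 29.6 ± 1.41 FPKM in the controls. Its difference of -0.34 did not pass (limma adjusted p = 0.149), while NFKBIE and NFKBIA, also NF-kB targets, were higher. This gene was singled out after its values were seen. TNIP3, a partner of TNFAIP3, was listed at 0 in OCI-LY10 and had 4.28 and 3.93 FPKM under shEGR1#8 and shEGR1#9, against 6.47 FPKM in the control, in TMD8 and 5.51 and 5.47 FPKM, against 6.28 FPKM, in SUDHL2.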
